A study of Mus musculus with 8 samples.

Results

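miR-21a is the mouse form of miR-21, and its hairpin yields a pair of mature strands, miR-21a-5p and miR-21a-3p. These 2 names were taken by exact match from the 862 miRNA names listed across 8 small RNA libraries of mouse liver, and both were listed in all 8. The study asked which small RNAs of liver and of liver mitochondria differ under caloric restriction. The animals were male wild-type C57BL/6J mice, housed singly, 8 weeks old when the 12-week diets began. Caloric restriction (CR) cut food by 20% in the first week and by 40% in the remaining 11 weeks, and control mice ate ad libitum (AL). The groups were CR mitochondria (3 libraries), AL mitochondria (3 libraries), CR whole liver (1 library) and AL whole liver (1 library). Mitochondria were purified to mitoplasts, mitochondria stripped of their outer membrane, by differential centrifugation before RNA extraction. Each whole-liver library was an equal pool of 3 RNA samples of its diet, so its animals cannot be told apart. The labels do not state that the mitochondrial libraries of a diet are from different mice, and the spread that p-values are based on here may thus be technical.

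A miRNA hairpin is cut by Drosha and Dicer into a short duplex. One strand is usually kept by an Argonaute protein as the guide, and the other, the passenger, is mostly degraded. The guide finds target messages largely through its seed, bases 2 to 8. miR-21-5p is a guide made in most cell types, known for repressing Pdcd4 and for rising with inflammation, fibrosis and liver injury. It has been described in hepatocytes, macrophages and activated stellate cells. Nuclear-encoded miRNAs, miR-21 among them, have also been reported in mitochondrial RNA.

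The 4 mature sequences below are given because the rest turns on how well the arms and their nearest relatives can be told apart by sequence. They are from RefSeq (GRCm38.p6), 5′ to 3′, with the seed in capitals.
miR-21a-5p: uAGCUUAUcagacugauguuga
miR-21a-3p: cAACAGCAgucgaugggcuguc
miR-21b: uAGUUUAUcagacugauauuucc
miR-21c: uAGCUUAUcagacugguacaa
Both miR-21a sequences were identical to those in the deposited tables. The hairpin of 92 bases lies on the minus strand of chromosome 11 at 86584067 to 86584158 (GRCm38.p6), inside the last exon, in the 3′ untranslated region, of a transcript of the autophagy gene Vmp1 (GENCODE M21). The 5p arm takes bases 18 to 39 of the hairpin (genome 86584120 to 86584141) and the 3p arm bases 56 to 77 (genome 86584082 to 86584103), with 16 bases between them. miR-21b matched miR-21a-5p at 18 of 22 positions counted from the 5′ end and at 6 of the 7 seed bases. miR-21c matched it at 16 of 21 positions and at all 7 seed bases. miR-21c was the only other name among the 862 with the seed of miR-21a-5p, and no other name had that of miR-21a-3p. The relatives were nearly undetected: miR-21b had 1 read in CR mitochondria replicate 2 and 1 read in AL mitochondria replicate 1, and miR-21c had 1 read in CR mitochondria replicate 3. Against these stood 1282615 reads of miR-21a-5p in all, so as named by the authors the 5p signal is that of miR-21a.

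Levels are in RPM, reads per 1000000 miRNA reads of a library. The libraries held 1070762 to 1577691 reads in mitochondria, 3242002 in the CR pool and 2431564 in the AL pool. Of all reads, the arms of miR-122, the dominant miRNA of hepatocytes, made up 25.2% to 58.1% of the reads in CR mitochondria and 38.0% to 45.3% in AL mitochondria, against 26.3% in the CR pool and 25.5% in the AL pool. All 6 hepatocyte marker names were found in every group. CR mitochondria replicate 2 stood apart. It had the lowest miR-122 share of the 8 libraries and summed 98.9 RPM over the 4 pancreas marker names, against at most 6.99 RPM in each of the other libraries. Fitted differences of miR-21a that rest on it are given with and without it. Group means, ranks, minor-arm shares and nearest patterns are given only with it. Intervals quoted for single libraries are exact Clopper-Pearson 95% intervals and cover counting error only.

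miR-21a-5p was among the most abundant miRNAs of every library. It stood at 64799, 65326 and 42572 RPM in the 3 CR mitochondrial libraries, against 112736, 69655 and 62267 RPM in the 3 AL mitochondrial libraries. In whole liver it stood at 94378 RPM in the CR pool and 190493 RPM in the AL pool. AL whole liver was the highest library and CR mitochondria replicate 3 the lowest. The CR and AL mitochondrial libraries overlapped, since AL replicate 3 lay below CR replicates 1 and 2. By group mean the order from the top was AL whole liver, CR whole liver, AL mitochondria (81553 ± 27257 RPM, SD, n = 3) and CR mitochondria (57566 ± 12988 RPM, SD, n = 3). The CR pool lay inside the range of the AL mitochondrial libraries, so these neighbours were not separated by their spread, and neither were the mitochondrial groups.

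By rank, miR-21a-5p was 3rd in CR mitochondria, 3rd in AL mitochondria, 3rd in the CR pool and 2nd in the AL pool, by group mean. Within single mitochondrial libraries the rank ran from 2 (AL replicate 1) to 5 (CR replicate 2). Directly above it stood miR-148a-3p, an abundant hepatocyte miRNA, in both mitochondrial groups and the CR pool, and miR-122-5p in the AL pool. In CR mitochondria miR-148a-3p averaged 121344 RPM, and its lowest library (85292 RPM) lay above the highest of miR-21a-5p. In AL mitochondria miR-148a-3p averaged 101350 ± 27694 RPM (SD, n = 3), and its libraries, from 72352 to 127524 RPM, overlapped those of miR-21a-5p. Directly below stood miR-101b-3p in CR mitochondria (45061 ± 25671 RPM, SD, n = 3), with overlapping libraries. miR-192-5p, another hepatocyte miRNA, stood below it in AL mitochondria (53938 ± 3625 RPM, SD, n = 3) and in the CR pool (70644 RPM). In the AL pool it was miR-148a-3p (108300 RPM).

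miR-21a-3p, the passenger strand, was rare. It stood at 25.8, 3.17 and 20.5 RPM in the CR mitochondrial libraries, from 31, 5 and 22 reads, and at 6.46, 8.22 and 4.22 RPM in the AL mitochondrial libraries, from 7, 9 and 6 reads. In whole liver it stood at 18.2 RPM in the CR pool (59 reads) and 17.7 RPM in the AL pool (43 reads). CR replicates 1 and 3 were the highest libraries of the series, above both pools, while CR replicate 2 was the lowest of all. The CR and AL mitochondrial libraries therefore overlapped through CR replicate 2 alone. The mean was 16.5 ± 11.8 RPM in CR mitochondria and 6.30 ± 2.01 RPM in AL mitochondria (SD, n = 3 each). The range within CR mitochondria was 8.14-fold, against 1.95-fold in AL mitochondria. For miR-21a-5p these ranges were 1.53-fold in CR and 1.81-fold in AL mitochondria. By group mean miR-21a-3p ranked 188th in CR mitochondria, 256th in AL mitochondria, 190th in the CR pool and 196th in the AL pool. Its neighbours in that order differed from it by less than the spread between libraries. In CR mitochondria miR-152-5p averaged 16.9 ± 5.71 RPM above it and miR-664-3p 16.2 ± 9.20 RPM below it (SD, n = 3 each). In AL mitochondria miR-33-5p, an arm of the cholesterol-regulating miR-33, averaged 6.30 ± 1.81 RPM above it and miR-24-1-5p 6.10 ± 2.78 RPM below it (SD, n = 3 each). In the CR pool the neighbours were miR-19a-3p (18.5 RPM) and miR-27a-5p (18.2 RPM), and in the AL pool miR-532-3p (18.1 RPM) and miR-3470b (17.7 RPM).

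**Figure D1:**
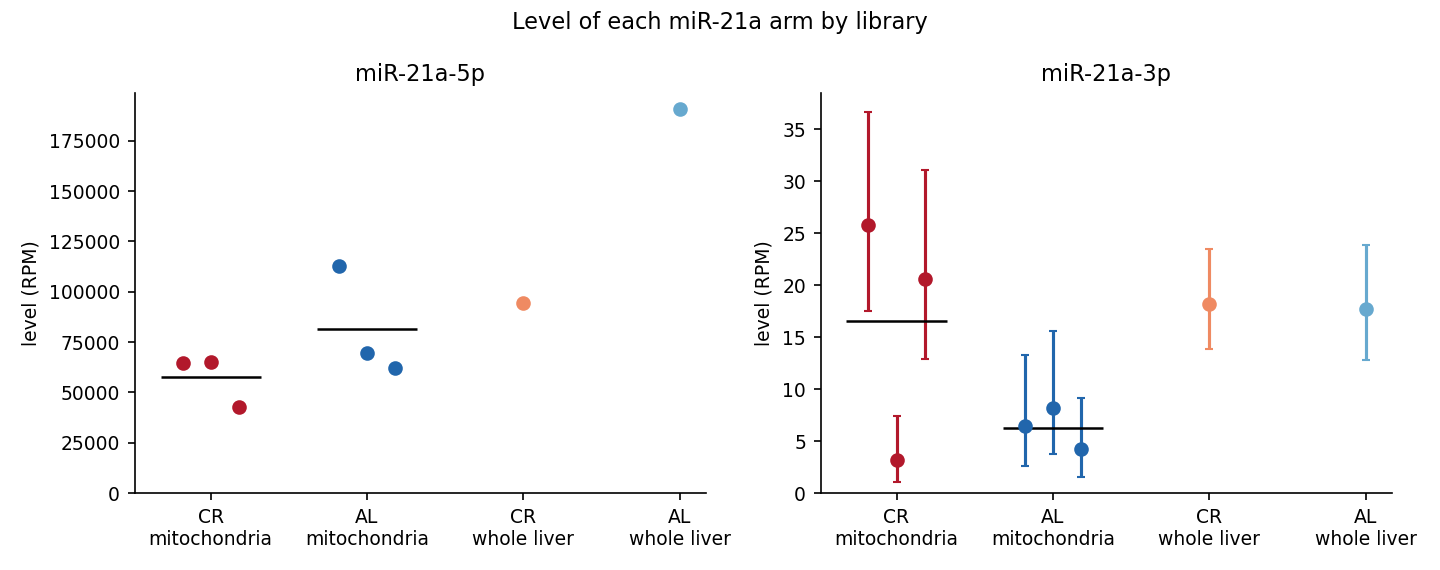
Level of miR-21a-5p (left) and miR-21a-3p (right) in RPM on linear axes. Each point is 1 library (replicates 1 to 3 from left to right within a mitochondrial group), bars are exact 95% counting intervals (smaller than the points for miR-21a-5p) and black lines are means of 3. The AL pool at 190493 RPM is the highest for miR-21a-5p, whereas for miR-21a-3p CR mitochondria replicates 1 and 3, at 25.8 and 20.5 RPM, lie above both pools, with overlapping intervals.

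The diet comparison in mitochondria asked whether CR changes what is recovered with the organelle. Neither arm passed the test. miR-21a-5p had a log2 difference (CR minus AL, on log2(RPM + 1)) of -0.48 (SE 0.42, 95% interval -1.36 to 0.40, adjusted p = 0.658 by limma-trend). For miR-21a-3p it was 0.92 (SE 0.61, 95% interval -0.38 to 2.21, adjusted p = 0.558 by limma-trend). On the recovered reads of miR-21a-3p the log2 difference was larger, 1.63 by edgeR (unadjusted p = 0.0182, adjusted p = 0.277) and 1.70 by DESeq2 (unadjusted p = 0.0215, adjusted p = 0.235), and did not pass in either. The intervals take in both no change and changes of 2-fold or more, so the libraries do not settle the size for either arm. Of all 391 miRNAs tested, 0.512% were called (0.256% higher and 0.256% lower in CR), and 13.3% stood at an unadjusted p under 0.05. The median of all tested miRNAs was -0.17, so that relative to it miR-21a-5p stood at -0.31 and miR-21a-3p at 1.09. In 19.4% of the 391 the CR and AL mitochondrial libraries did not overlap, and neither arm was among them. Without CR replicate 2 the log2 difference was -0.58 for miR-21a-5p (adjusted p = 0.339 by limma-trend) and 1.76 for miR-21a-3p (adjusted p = 0.0861 by limma-trend). Without CR replicate 1 it was 0.42 for miR-21a-3p, and without AL replicate 1 it was -0.22 for miR-21a-5p.

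As a share of all miRNA reads, both arms of miR-21a together took 5.76% ± 1.30 in CR mitochondria and 8.16% ± 2.73 in AL mitochondria (SD, n = 3 each). The difference of -2.40 percentage points gave p = 0.3 in a two-sided exact permutation test, which with 3 against 3 libraries cannot go below 0.1. The difference was -2.78 points without CR replicate 2. Since miR-122 took a variable part of each library, the share was also taken of the reads left without it. miR-21a then held 10.9% ± 2.65 in CR mitochondria and 13.9% ± 3.88 in AL mitochondria (SD, n = 3 each) (p = 0.4, two-sided exact permutation test). For miR-21a-5p alone the share without miR-122 was 13.9%, 8.74% and 10.2% in the CR and 18.2%, 12.7% and 10.7% in the AL mitochondrial libraries. AL replicate 1 was the highest on both scales, and without it the difference in the share of all reads was -0.84 points.

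Markers of other cell types were read in the same libraries. The 7 leukocyte and Kupffer cell names were all found, none at 0 in any group. They summed to 3033 to 4962 RPM in CR mitochondria and 8178 to 11135 RPM in AL mitochondria, without overlap. Of the 391 single miRNAs tested between diets, 19.4% likewise did not overlap. In whole liver the 7 names summed to 803 RPM in the CR pool and 1136 RPM in the AL pool. One name, miR-146a, made up 91.6% of this sum in CR and 95.5% in AL mitochondria, against 48.6% in the CR and 55.5% in the AL pool. Between diets miR-146a-5p did not pass (log2 difference -1.43, adjusted p = 0.0730 by limma-trend). Against whole liver only miR-146a-5p of this list was called higher (log2 difference 3.54, adjusted p = 7.16e-07 by limma-trend). Over all 417 miRNAs that fit called 10.6% higher and 21.6% lower in mitochondria. In the same fit miR-511-5p was called lower (-2.52, adjusted p = 0.00249 by limma-trend). The remaining tested members ran from -1.28 (miR-155-5p) to 0.79 (miR-146a-3p) and were not called. The 5 stellate cell and fibroblast names, likewise all found and none at 0, summed to 25662 to 44663 RPM in CR mitochondria and 35621 to 47454 RPM in AL mitochondria, against 15881 RPM in the CR pool and 14710 RPM in the AL pool. The overlap of this sum came from CR replicate 2 (44663 RPM) alone, since CR replicates 1 and 3 (25662 and 27163 RPM) lay below every AL mitochondrial library. Of its members, only miR-143-3p was called higher in mitochondria than in whole liver (log2 difference 1.48, adjusted p = 0.00386 by limma-trend). Called lower were miR-199a-5p (-1.59), miR-145a-3p (-1.42) and miR-145a-5p (-1.25), with adjusted p of at most 0.00378 by limma-trend. The other members tested ran from -1.08 (miR-199b-5p) to 0.58 (miR-143-5p) and were not called. Beside these calls stand the same 10.6% higher and 21.6% lower over all 417 miRNAs. The bile duct sum stood lower in every mitochondrial library than in either pool, and the endothelial sum did so in all but CR replicate 2. The 6 bile duct names summed to 414 to 640 RPM in CR and 300 to 547 RPM in AL mitochondria, against 992 RPM in the CR pool and 908 RPM in the AL pool. The endothelial miR-126a summed to 6707 to 18066 RPM in CR mitochondria, highest in replicate 2, and to 6694 to 9437 RPM in AL mitochondria, against 14978 RPM in the CR pool and 19607 RPM in the AL pool. The part of these cells in the values of miR-21a was not tested. In such bulk RNA, fewer cells of a type and less RNA per cell cannot be told apart.

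Whole liver was compared between 1 pool per diet, so its ratios compare those libraries and have no replicate check. miR-21a-5p was at 94378 RPM (305974 reads) in the CR pool and 190493 RPM (463195 reads) in the AL pool, a ratio of 0.495 (95% interval 0.493 to 0.498) and a log2 ratio of -1.01. Its share of the reads was 9.44% in the CR pool and 19.0% in the AL pool, where miR-122-5p alone had a larger one. miR-21a-3p did not differ within counting error, with a ratio of 1.03 (95% interval 0.683 to 1.56). Among the 243 miRNAs that reached 10 RPM in either pool, CR was lower by 2-fold or more (1 RPM added) for 7% and higher by 2-fold or more for 4.12%. miR-21a-5p took position 17 from the lowest ratio and miR-21a-3p position 162, around a median log2 ratio of -0.22. With other scalings the log2 ratio of miR-21a-5p ranged from -1.01 to -0.71, so the 2-fold mark depends on the deposited scale. The diet difference of neither arm was shown to differ between mitochondria and whole liver. The interaction of diet and fraction, fitted over all 8 libraries, was 0.53 for miR-21a-5p (SE 0.87) and 0.88 for miR-21a-3p (SE 1.22), with an adjusted p of 0.998 for each by limma-trend. Of the 417 miRNAs, limma-trend called 0 there (0%) and had 5 (1.2%) at an unadjusted p under 0.05, while edgeR called 0 with 18 and DESeq2 called 0 with 8 at that level. With 1 mitochondrial library left out the interaction ranged from 0.36 to 0.79 for miR-21a-5p. For miR-21a-3p it was 1.72 without CR replicate 2, 0.38 without CR replicate 1 and 0.53 without CR replicate 3.

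The comparison of mitochondria with whole liver asked how much of each arm is recovered with the organelle relative to the tissue. On the deposited scale every mitochondrial library held less miR-21a-5p than the pool of its own diet. The group mean was 0.610 of the pool under CR and 0.428 of the pool under AL. The same was true of 31.9% of the 417 tested miRNAs, so such a pattern was common. As a share of the reads left without miR-122, CR replicate 1 (13.9%) instead stood above the CR pool (12.8%). The other mitochondrial libraries stayed below the pool of their diet on that scale, where the AL pool held 25.6%. With diet as a term the log2 difference (mitochondria minus whole liver) was -1.01 (SE 0.40, 95% interval -1.84 to -0.17), which missed the threshold (adjusted p = 0.0608 by limma-trend). Of the 417 miRNAs 32.1% were called (10.6% higher and 21.6% lower in mitochondria), 41.5% stood at an unadjusted p under 0.05, and the median was -0.31. Without CR replicate 2 the value was -1.07 and passed (adjusted p = 0.00799 by limma-trend), and without AL replicate 1 it was -1.11 and passed (adjusted p = 0.0478 by limma-trend). Relative to other miRNAs the size was smaller: it was -0.70 with DESeq2 size factors and -0.57 in edgeR with TMM factors, and it did not pass in either. Without miR-122 in the total it was -0.59 and did not pass (adjusted p = 0.188 by limma-trend).

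miR-21a-3p gave a less even picture. All 3 AL mitochondrial libraries lay below the AL pool, with a mean of 0.356 of its level. In CR only replicate 2 lay below the CR pool. The CR mean, 0.907 of the level of that pool, lay below it through replicate 2 alone. The log2 difference (mitochondria minus whole liver) over both diets was -0.96 (SE 0.59, 95% interval -2.19 to 0.28, adjusted p = 0.228 by limma-trend). Without CR replicate 2 it was -0.59 and without the AL pool -0.52. In both fits over 8 libraries the pools were assumed to vary like the mitochondrial libraries.

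**Figure D2:**
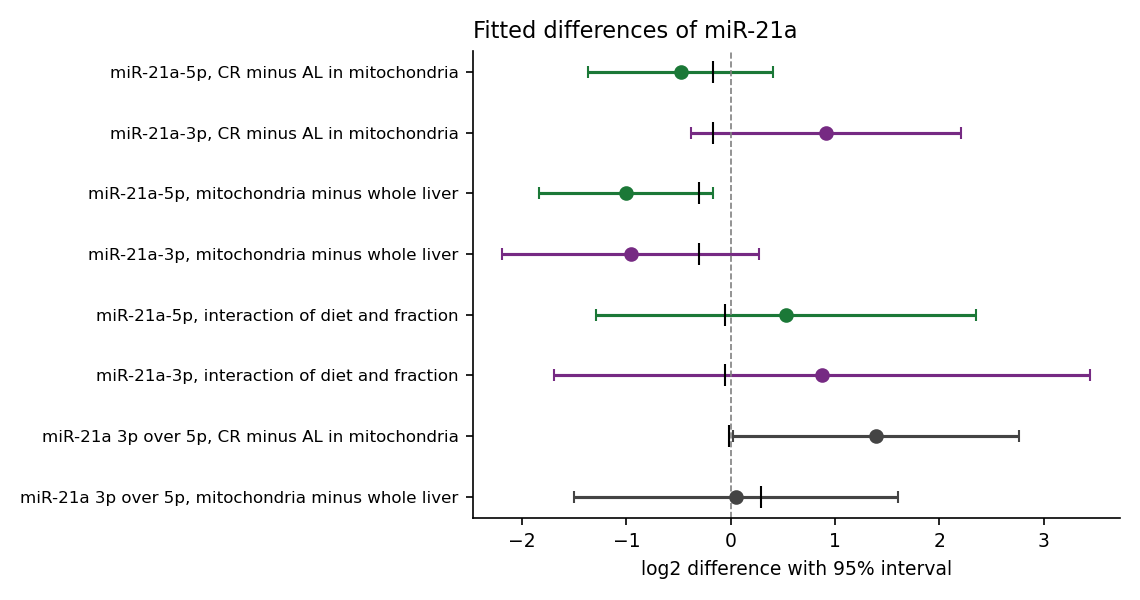
Fitted log2 differences (horizontal axis) of miR-21a-5p, miR-21a-3p and the 3p over 5p balance in each comparison, with limma 95% intervals. The short black ticks are the medians of all miRNAs, or all hairpins, tested in the same comparison. The intervals of miR-21a-5p between mitochondria and whole liver and of the balance between diets, -1.84 to -0.17 and 0.02 to 2.77, lie on one side of 0 before adjustment over all tested features.

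The arms come from 1 hairpin, so the ratio of their reads within a library does not depend on how libraries are scaled. The fitted balances below add 1 RPM to each arm and so depend in part on that scale. Between diets in mitochondria the fitted value was 1.42 with 0.5 RPM added and 1.21 with 5 RPM added. The 3p strand was a very small part in all 8 libraries. Per 10000 reads of miR-21a-5p there were 3.98, 0.485 and 4.83 reads of miR-21a-3p in the CR mitochondrial libraries, and 0.573, 1.18 and 0.677 in the AL mitochondrial libraries. In whole liver there were 1.93 in the CR pool and 0.928 in the AL pool. CR replicates 1 and 3 were high and their 95% intervals (2.71 to 5.65 and 3.02 to 7.30) did not overlap those of any AL mitochondrial library or of either pool. CR replicate 2 (0.158 to 1.13) lay with the AL libraries. Among hairpins with at least 1000 RPM over both arms, miR-21a had one of the smallest minor arms. Its minor arm took 0.0287% in CR mitochondria (position 4 from the lowest of 26), 0.00772% in AL mitochondria (2 of 29), 0.0193% in the CR pool (6 of 33) and 0.00928% in the AL pool (3 of 35). The medians of these hairpins lay between 0.316% and 0.345%.

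The log2 difference of the 3p over 5p balance in mitochondria (CR minus AL) was 1.40 (SE 0.65, 95% interval 0.02 to 2.77). It did not pass over the 102 hairpins tested (unadjusted p = 0.0465, adjusted p = 0.472 by limma). None of the 102 passed (0%), and 8.82% stood at an unadjusted p under 0.05. Here 1 library decided the value. Without CR replicate 2, the library with the pancreas names and the low miR-122 share, the log2 difference was 2.34 (SE 0.46, adjusted p = 0.00744 by limma), and miR-21a was the only one of 93 hairpins called (1.08%). It was 0.99 without CR replicate 1, 0.85 without CR replicate 3 and 1.17 to 1.67 without 1 of the AL libraries, none past the threshold. These differences rest on 58 reads of miR-21a-3p in CR and 22 in AL mitochondria.

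In the pools the balance was 2.08-fold higher in CR than in AL (conditional odds ratio, 95% interval 1.38 to 3.15), which covers counting error between those libraries only. How this ratio splits between the arms depends on the scaling. On the deposited scale the log2 ratio of the pools was 0.04 for miR-21a-3p and -1.01 for miR-21a-5p, and with TMM factors it was 0.35 for miR-21a-3p and -0.71 for miR-21a-5p. In mitochondria the means of both arms lay apart in opposite directions.

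Between mitochondria and whole liver the balance of miR-21a did not change detectably. The log2 difference was 0.05 (SE 0.70, 95% interval -1.50 to 1.60, adjusted p = 0.949 by limma), and its sign turned without CR replicate 1 (-0.15), CR replicate 3 (-0.22), AL replicate 2 (-0.07) or the CR pool (-0.12) and with a pseudocount of 0.5 RPM (-0.0058). The same fit called 36.9% of the 111 hairpins tested (22.5% higher and 14.4% lower), and 45.9% stood at an unadjusted p under 0.05. These 41 calls rested on both pools, with 20 of 108 hairpins called without the CR pool and 19 of 109 without the AL pool. The largest were miR-193a (6.10), let-7g (5.77) and miR-221 (4.87) towards the 3p arm and miR-335 (-4.19), miR-361 (-3.94) and miR-29a (-3.55) towards the 5p arm, with adjusted p of at most 0.00111 by limma.

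**Figure D3:**
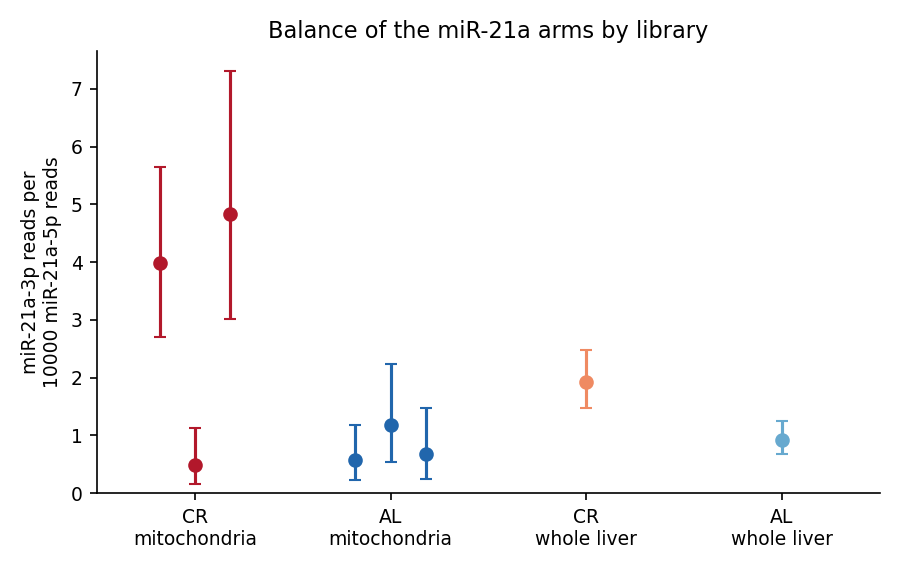
Reads of miR-21a-3p per 10000 reads of miR-21a-5p (linear axis) in each library, with exact 95% counting intervals; replicates 1 to 3 run from left to right within a mitochondrial group. CR mitochondria replicates 1 and 3, at 3.98 and 4.83, lie above the other 6 libraries, which range from 0.485 to 1.93.

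**Figure D4:**
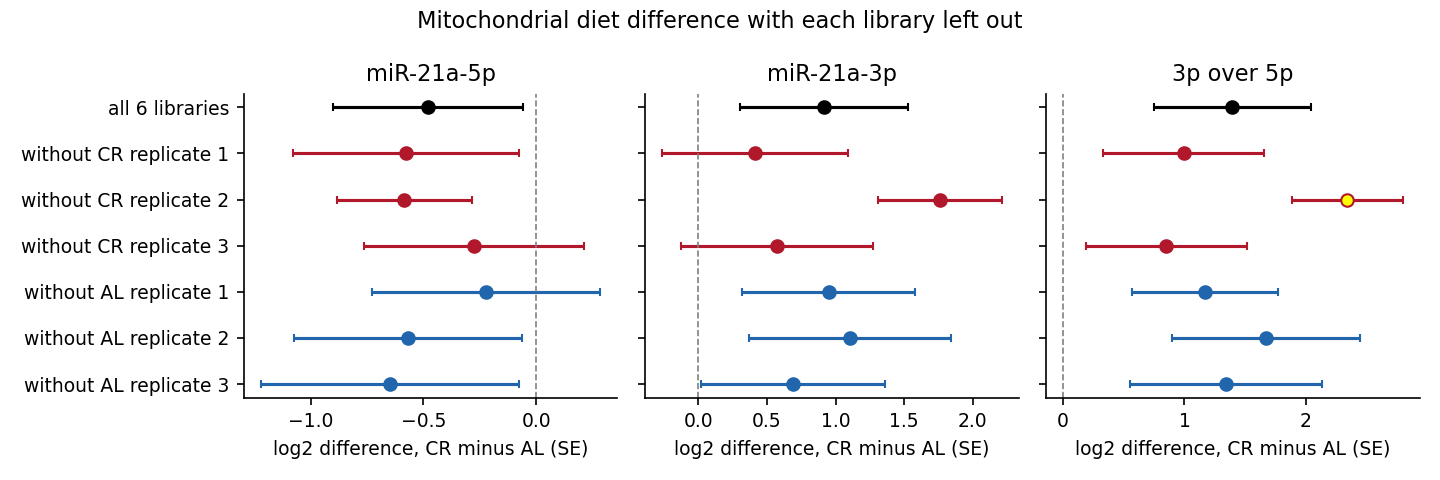
Log2 difference, CR minus AL, in mitochondria (horizontal axes) for miR-21a-5p, miR-21a-3p and the 3p over 5p balance, with all 6 libraries (black) and with each CR library (red) or AL library (blue) left out. Bars are limma standard errors, and a yellow point passed an adjusted p of 0.05. Only the balance without CR replicate 2, at 2.34, passed.

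The miRNAs whose pattern over the 8 libraries was nearest to miR-21a-5p were found by the root mean square difference of log2(RPM + 1), each miRNA centred on its own mean. Among 105 candidates with a mean of at least 100 RPM these were miR-103-3p (0.27), which acts on insulin sensitivity in liver, miR-27a-3p (0.28), miR-23b-3p (0.30), miR-203-3p (0.30) and miR-93-5p (0.31). The spread of miR-21a-5p about its own mean on this measure was 0.62. The nearest, miR-103-3p, stood at 779, 1353 and 650 RPM in CR mitochondria and 1536, 1186 and 1040 RPM in AL mitochondria, with 2086 RPM in the CR pool and 2823 RPM in the AL pool. Like miR-21a-5p it was highest in the AL pool and lowest in CR mitochondria replicate 3. For miR-21a-3p, among 232 candidates with a mean of at least 10 RPM, the nearest were miR-874-3p (0.55), the erythroid miR-451a (0.71), miR-3535 (0.82), miR-31-5p (0.85) and miR-378a-5p (0.86), with a spread of 0.95 of its own. miR-874-3p stood at 11.7, 3.17 and 16.8 RPM in CR mitochondria and 10.2, 11.0 and 7.03 RPM in AL mitochondria, and like miR-21a-3p it was lowest in CR replicate 2. The arms of miR-21a were not near each other. Their difference was 1.09, position 182 among 232 candidates, where the median was 0.71. miR-21a-3p had only 5 to 31 reads in a mitochondrial library, and the part of counting error in this distance was not tested. These patterns are descriptions over 8 libraries that share depth and group differences.

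Other miRNAs of liver injury, inflammation and fibrosis were read from a list of 18 names without miR-21a. In mitochondria 29 mature members were tested between diets, 0 rose and 1 fell under CR, 3.45% of the list beside 0.512% over all 391. No miRNA of the list, and 0% of the 360 tested, was called without CR replicate 2. Their median log2 difference was -0.38, against -0.17 over all 391. The member that fell was miR-199a-3p, a miRNA of mesenchymal cells, which averaged 602 RPM in CR and 1889 RPM in AL mitochondria (log2 difference -1.64, SE 0.32, adjusted p = 0.0141 by limma-trend). The call rested on single libraries. It was lost without any 1 of the CR libraries and without AL replicate 2 or 3 (adjusted p 0.0714 to 0.158 by limma-trend), while the log2 difference stayed between -1.78 and -1.51 whichever library was left out. miR-146a-5p, a brake on NF-kappaB signalling, averaged 3600 RPM in CR and 9595 RPM in AL mitochondria and did not pass (-1.43, adjusted p = 0.0730 by limma-trend). Neither did miR-199a-5p (-1.25), the p53 target miR-34a-5p (-1.30) or miR-214-3p (-0.78), with adjusted p from 0.0736 to 0.385 by limma-trend.

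Against whole liver 30 members of this list were tested and 11 passed by limma-trend, 6 higher and 5 lower in mitochondria, a share of 36.7% beside 32.1% over all tested miRNAs. The counts were also 6 and 5 without CR replicate 2, 37.9% of 29 beside 35% of 391. The higher ones were miR-146a-5p (3600 RPM in CR and 9595 RPM in AL mitochondria, against 390 and 630 RPM in the CR and AL pools), miR-29a-5p, miR-29c-3p, miR-29b-3p, miR-19b-3p and miR-378a-3p. The miR-29 family represses collagen genes. The lower ones were miR-221-5p, miR-199a-5p, miR-181b-5p, miR-132-5p and miR-212-5p. Their log2 differences ran from 0.98 (miR-29b-3p) to 3.54 (miR-146a-5p) among the higher and from -4.82 (miR-221-5p) to -1.57 (miR-181b-5p) among the lower. The median of the list was -0.39, and miR-21a-5p (-1.01) lay below it.

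Of the miRNAs that earlier work named in mitochondrial RNA, 22 of 27 names other than miR-21a were found here. Between diets 32 mature members were tested in mitochondria and limma-trend called 0, beside 0.512% called over all 391. The unadjusted p was under 0.05 for 6 of the 32, beside 13.3% over all, and the median was -0.28 beside -0.17. Against whole liver 33 were tested, 4 were higher and 4 lower in mitochondria by limma-trend, 24.2% beside 32.1% over all, with a median of -0.36 beside -0.31. There were 5 higher and 5 lower without CR replicate 2, 32.3% of 31 beside 35% of 391. Higher were miR-146a-5p, miR-378a-3p (2.14), miR-130a-5p (2.02) and miR-24-2-5p (1.01). Lower were miR-671-3p (-2.12), miR-423-3p (-1.90), miR-181a-5p (-1.28) and the endothelial miR-126a-3p (-1.08). For the interaction of diet and fraction limma-trend called 0 members of either list, and the unadjusted p was under 0.05 for 1 of 30 members of the injury list and 0 of 33 of the mitochondrial list, beside 1.2% over all 417. The lists share members with each other and with the markers, miR-146a among them.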

How the data were processed

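Small RNA libraries (6 mitochondrial, 2 whole-liver pools) were grouped by the labels, and all 8 were used. The deposited values are RPM, scaled by the authors to 1000000 miRNA reads per library with no length scaling, though the columns are headed tpm. Bowtie and build mm9 are named per the submitters' processing notes. Name assignment, mismatches and multiple hits are not given in the sources used here. Some pairs of names, such as miR-338-3p and miR-3065-5p, had identical fitted differences. Counts over all tested names can thus hold a signal more than once. In the arm balance between fractions their hairpins miR-338 (1.87) and miR-3065 (-1.87) were both called. Of the values, 100% were whole multiples of the smallest in their library (within 0.01 read), which gave the reads. A level of 0 allows up to 3 reads, worth 0.925 to 2.80 RPM.

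The design fixed limma-trend (limma 3.58.1, R 4.3.3) on log2(RPM + 1). A miRNA was tested where 3 or more libraries reached 1 RPM, p-values were adjusted by Benjamini-Hochberg over all tested, and the threshold was 0.05. The arm balance was fitted with limma over all hairpins whose arms both passed that filter. Both fits were run, in their diet form only, on reads simulated for the mitochondrial libraries with the same spread setting for every miRNA. The forms for fraction and interaction were not run on simulated reads. edgeR 4.0.16, limma-voom and DESeq2 1.42.0 on the recovered reads were alternatives. Python 3.11.15 (scipy 1.17.1, matplotlib 3.10.9) did the rest.

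Members, lists and the rule for named miRNAs (rank neighbours, the 5 nearest patterns, list members past the threshold and up to 4 others by p, the 3 largest arm changes each way) were chosen with earlier results of these data known. List members without printed values were left out for length. Same-numbered CR and AL libraries were not taken as pairs.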

Additional observations from a re-analysis of the deposited data

How the results depend on the processing

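Neither arm passed between diets in mitochondria, or for the interaction, under any alternative, and no sign turned there. The log2 difference between diets ranged from -0.65 to -0.22 for miR-21a-5p (19 alternatives, adjusted p 0.339 to 0.917) and from 0.42 to 1.76 for miR-21a-3p (18 alternatives, adjusted p 0.0861 to 0.852); under a filter of 10 RPM miR-21a-3p and the arm balance between diets were not tested. Leaving out 1 library gave these same extremes, and -3.36 to -0.84 points for the share of reads. Between mitochondria and whole liver miR-21a-5p ranged from -1.27 to -0.57 (adjusted p 0.00799 to 0.477), -1.27 to -0.74 with 1 library left out. At -1.01 it passed with the 10 RPM filter (adjusted p = 0.0420) and with robust moderation (adjusted p = 0.0397), and it also passed without CR mitochondria replicate 2 or AL mitochondria replicate 1; the causes were not tested. miR-21a-3p ranged from -1.39 to -0.39 and never passed. The arm balance between diets ranged from 0.85 to 2.34 with 1 library left out and from 1.21 to 1.42 otherwise, and that between fractions from -0.22 to 0.49 with 1 library left out, turning to -0.0058 with a pseudocount of 0.5 RPM. The pools' log2 ratio ranged from 0.04 to 0.35 for miR-21a-3p. That of miR-21a-5p was -0.85 with DESeq2 size factors, -0.71 with TMM, -0.72 with upper quartile factors and -0.997 without miR-122 in the total.

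The 2 calls between diets over all miRNAs became 5 with DESeq2 size factors, TMM or limma-voom, 6 with upper quartile factors, 4 without miR-122, 10 with no filter, 8 with the 10 RPM filter, 1 with robust moderation, 7 with edgeR, 11 with DESeq2 and 0 to 6 with 1 library left out. The 134 calls between fractions became 58 without the CR pool and 65 without the AL pool (58 to 140 over all libraries left out), and the 0 of the interaction 129 with no filter. The calls between fractions were 44 higher and 90 lower, 62 and 72 with DESeq2 size factors, 59 and 72 with TMM, 52 and 72 with upper quartile factors, 66 and 63 without miR-122, 97 and 70 with edgeR, 103 and 73 with limma-voom and 78 and 71 with DESeq2. The median over all tested miRNAs was 0.03 with DESeq2 size factors in place of -0.17 (diet) and -0.08 in place of -0.31 (fraction).

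Same-numbered mitochondrial libraries deviated together with r of 0.36, 0.08 and 0.11, and those of different number with r from -0.29 to 0.22. CR replicates 1 and 2 and AL replicates 1 and 3 correlated best with their own number. CR replicate 3 did so with AL replicate 2, and AL replicate 2 with CR replicate 3. The main fits did not read the numbers as pairs. With the replicate number as a block the log2 differences kept their size, with adjusted p of 0.563 (miR-21a-5p), 0.488 (miR-21a-3p) and 0.354 (balance), and 3 miRNAs were called. The block could not be fitted against whole liver, where the pools carry no number. The binomial alternative planned for the balance yields an interval for each library, printed with its value, and no fitted difference to set beside the others. Leaving out libraries for the interaction and for the calls between fractions, and for list members, was chosen after seeing the data. Depth limits miR-21a-3p, at 5 to 31 reads a mitochondrial library.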

Other observations

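The letters ATAAGCT, complementary to the seed of miR-21a-5p, were searched on the sense strand of the 13 protein-coding mitochondrial transcripts (GENCODE M21, GRCm38, 11403 bases in all). They were found 2 times, in transcripts of complex I subunits, and the windows are shown because miR-21a-5p was abundant in the mitochondrial libraries (capitals mark the letters searched).
mt-Nd4l, transcript bases 160 to 166: ctccaactccATAAGCTccataccaat
mt-Nd5, transcript bases 232 to 238: agaacttaaaATAAGCTtcaaaactga
Of 823 annotated miRNA names in the tables, 37.4% had at least 1 such match to their own seed, and the median was 0. The letters complementary to the seed of miR-21a-3p were not in these transcripts. A match is a description of letters only, and no transcript levels were measured here.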
